A study of Oncorhynchus mykiss with 6 samples.

Results

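The small heat shock protein gene hsp30 was represented by 5 entries among the 1213 genes of a ribosome footprint table from liver of the rainbow trout, Oncorhynchus mykiss, a salmonid of cold water. The 5 entries were taken by their symbol alone, ignoring case, and are lettered A to E here in the order of the deposited table. The 6 libraries formed a control group and a heat stress group of 3 each. The sample labels give 18 °C for control and 24 °C for 8 h for heat stress, whereas the treatment protocol gives 20 °C for control. Both groups carry the tissue label liver, and the labels name no strain, age or sex and no number of fish. They do not state whether each library is a fish of its own, so a p-value here measures spread between libraries only, part of which may be technical. Ribosome footprints are the short mRNA pieces that a ribosome shields from nuclease. Their number follows both the amount of an mRNA and how often it is translated, and RNA levels of the same livers were not analysed here.

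Small heat shock proteins are chaperones that work without ATP. They share an alpha-crystallin domain, assemble into large oligomers, and hold unfolding proteins in a soluble state until Hsp70 and its Hsp40 partners can refold them. The hsp30 genes are known from fish and frogs as a multicopy group that is nearly silent in unstressed cells and strongly induced by heat through heat shock factor. Salmonids went through a whole genome duplication of their own, so several near-identical copies of a gene are common in trout, and a short footprint can match more than 1 of them.

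The authors listed only genes that passed their FDR of 0.05 with a change of 2-fold or more between the groups, so the entries had been selected on the very comparison described below. Their tests are given as a description of listed genes and not as independent evidence of a rise. The listed genes held 362308 to 503370 footprints per control library and 438701 to 863769 per heat stress library. Depth relative to control replicate 1, recovered from the ratio of count to FPKM, ranged down to 65.5% among control libraries and from 41.4% to 82.0% among heat stress libraries. Of 11 liver cell symbols looked for, 3 were listed. Mean FPKM in control and under heat was 3901 and 1631 for albumin (alb1), 8598 and 3070 for the retinol carrier gene rbp4, and 311 and 813 for the fibrinogen gene fga, so they did not move one way. The symbols rbp4 and fga had 2 entries each and are given as a single value, so their levels are not set against that of alb1. None of the 12 symbols of blood, leukocyte or muscle cells was listed, and because unlisted genes were not analysed here this gives no bound on other cells. In such bulk samples, more cells of a type and more RNA per cell cannot be told apart.

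Identifiers in the table were cut to 8 characters. Entries A, B and C begin with ncbi_118, and entries D and E with ncbi_110. Of 72772 trout genes in the RefSeq table for assembly USDA_OmykA_1.1, 0 had hsp30 as a symbol or synonym, so no coordinates or sequences are given. The pathway and ontology cells of all 5 entries held no term. The length that the authors used for FPKM could be compared through count, FPKM and depth. In each heat stress library it differed between the 5 entries by at most 0.498%. The inducible Hsp70 gene hspa1b had a length 2.91 times that of hsp30 by the same measure. The entries thus differed little in length, and levels in FPKM, which scales footprints to gene length and library depth, could be set side by side.

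In the control libraries the hsp30 entries ranged from 0 to 5.06 FPKM. Entries A and B had no footprint in control replicates 1, 2 or 3. With 3 footprints as the limit that a count of 0 allows, an entry of this length could have held up to 0.630, 0.824 and 0.961 FPKM in those libraries, for counting error only. Entry C had 14, 18 and 0 footprints, or 3.04, 5.06 and 0 FPKM. Entries D and E each had 14, 0 and 0 footprints, or 2.85, 0 and 0 FPKM. Control replicate 3 was thus listed at 0 for all 5 entries. Having no footprint in any control library was shared by 43 of the 1213 listed genes, or 3.54%.

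All 5 entries were higher in every heat stress library than in any control library. The same held for 75.5% of all listed genes, so the count of entries says little about hsp30 in particular. Entry A, the most abundant on average, had 541, 274 and 238 footprints in heat stress replicates 1, 2 and 3, or 157, 139 and 61.0 FPKM. Its level was highest in replicate 1 and lowest in replicate 3. Entry B had 35, 100 and 751 footprints, or 10.2, 50.9 and 192 FPKM. Its level was lowest in replicate 1 and highest in replicate 3, the reverse of entry A. Entry C had 188, 267 and 331 footprints, or 54.5, 136 and 84.7 FPKM, with replicate 2 the highest. Entries D and E each had 279, 84 and 304 footprints, or 81.1, 42.7 and 77.9 FPKM, with replicate 2 the lowest.

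**Figure D1:**
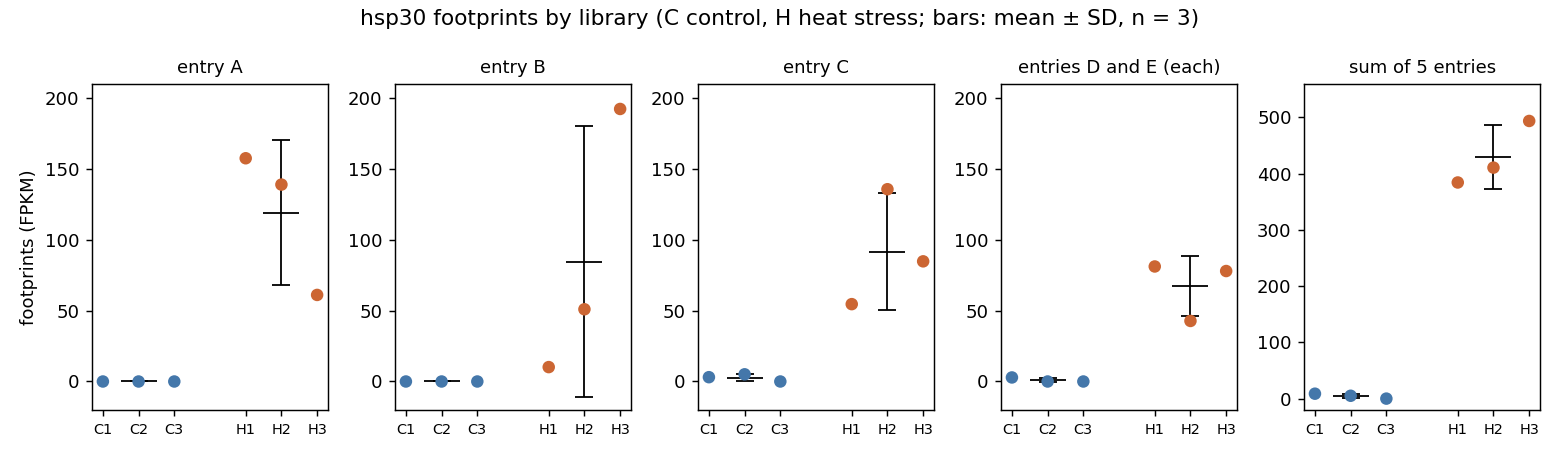
Footprint level in FPKM (vertical axis) of each hsp30 entry and of their sum (right panel, larger scale) in control (C1 to C3, blue) and heat stress libraries (H1 to H3, orange), with the mean and SD of each group of 3 as bars. Entry B runs from 10.2 to 192 FPKM in heat stress, while the sum stays between 384 and 494 FPKM.

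The mean level in heat stress was 119 ± 51.1 FPKM for entry A, 91.6 ± 40.9 for entry C, 84.4 ± 95.5 for entry B and 67.2 ± 21.3 for entries D and E (SD, n = 3). The ranges of all neighbours in this order overlapped, and the order itself differed between libraries. Entry A led in replicate 1 and entry B in replicate 3. In replicate 2 entries A and C were nearly equal, at 139 and 136 FPKM. Without heat stress replicate 3 the mean of entry B was 30.5 FPKM, and without replicate 1 it was 122 FPKM, so its place in the order rested on single libraries.

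By limma-voom on the counts, all 5 entries passed an adjusted p of 0.05 and rose. Among all listed genes with enough footprints to test, 87.5% passed and 71.3% passed as higher. Entry A was at least 434-fold higher and entry B at least 365-fold higher in heat stress, taking 3 footprints in the pooled controls as the floor. The bound for B rested on heat stress replicate 3 and was 95.9-fold without it, and 556-fold without heat stress replicate 1. The bound for A was 579-fold and 335-fold without the same libraries. Without control replicate 1, which is the deepest control library, the bounds were 255-fold for A and 214-fold for B. The limma-voom adjusted p of A and B was 7.58e-05 and 0.0219. Fitted log2 fold changes of these entries depend on the small count added to each 0 and are no bound. By fold over pooled libraries, with genes under 3 control footprints set at that floor, A had rank 2 and B rank 4 of the 1213 listed genes. By these values hspa1b, at 2233-fold, stood above A, and an hsp70 entry, at 418-fold, between A and B. The values of A and B are lower bounds and those of hspa1b and hsp70 are not, so their true order cannot be told. Without heat stress replicate 3, B had rank 10. Without replicate 1, A had rank 5 and B rank 2, and without replicate 2, A had rank 4 and B rank 3.

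For the entries with control footprints a log2 fold change is given, although each had at least 1 control library at 0, so it too depends on the count added. Entry C had a log2 fold change of 5.84 ± 0.92 (SE; limma-voom adjusted p = 0.00526). Entries D and E had one of 7.35 ± 0.90 each (limma-voom adjusted p = 0.00107). Leaving out 1 control library moved C to between 4.47, without replicate 3, and 6.77, without replicate 2. It moved D and E to between 6.42, without replicate 2, and 8.80, without replicate 1. All these calls held. The fold over pooled libraries, with no count added, was 30.4 for C and 59.0 for D and E. The 95% intervals of C, 3.81 to 7.87, and of D, 5.37 to 9.32, overlapped, and the difference between them was not tested. The authors' deposited table gives log2 fold changes of 16.86 for A and 16.37 for B. In the authors' deposited table the control mean of these entries is 0.001 FPKM in place of 0, so these values measure no fold change.

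The call of entry B depended on the libraries and on the scale. It was lost without control replicate 1, 2 or 3 or heat stress replicate 2 in turn, with limma-voom adjusted p from 0.0527 to 0.142. When libraries were scaled by TMM on the listed genes, entries B and C missed the threshold (limma-voom adjusted p = 0.298 and 0.0606). Entries A, D and E passed. Of all tested genes, 30.9% passed in either direction and 7.81% passed as higher. TMM takes most of the listed genes as unchanged, although each had been selected as changed, and it moved the median log2 fold change of all tested genes from 1.66 to 0.18. The log2 fold change of A was then 8.23 and that of D and E 5.85.

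Summed over the 5 entries, hsp30 was far more even between heat stress libraries than any of its entries. The sum was 8.74, 5.06 and 0 FPKM in control replicates 1, 2 and 3 and 384, 411 and 494 FPKM in heat stress replicates 1, 2 and 3. The groups did not overlap, and heat stress libraries differed by at most 1.28-fold. Entry A differed by 2.58-fold between them, C by 2.49-fold, D by 1.90-fold and B by 18.9-fold. The mean sum was 4.60 ± 4.39 FPKM in control and 430 ± 57.1 FPKM under heat (SD, n = 3). A two-sided exact permutation test gave p = 0.1, the lowest value that 3 libraries against 3 can reach. Entered in the fit as 1 gene, the sum had a log2 fold change of 7.60 ± 0.91 (SE; limma-voom adjusted p = 0.00101). Without control replicate 3, the library listed at 0, it was 5.95, and without control replicate 1 it was 8.82. As 1 gene, hsp30 would have stood at place 46 among the listed genes by mean FPKM in heat stress, whereas A stood at 116, C at 150 and B at 157. For that place D and E were both counted, and other symbols with several entries were not summed.

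The division of hsp30 footprints among the entries shifted from library to library. Entry A held 41.0%, 33.8% and 12.4% of the summed FPKM in heat stress replicates 1, 2 and 3. Entry B held 2.64%, 12.4% and 38.9%. As A's share was lower, B's was higher, and each was the leading entry in 1 library or more. Entry C held 14.2%, 33.0% and 17.2%, and D and E each held 21.1%, 10.4% and 15.8%. The identical entries D and E were both counted in these shares and in the intervals below. With the pair counted once, the mean share of A was 34.8% in place of 29.0%, and that of B 21.1% in place of 18.0%. By footprints, the Wilson 95% interval of B's share was 1.91% to 3.66% in replicate 1 and 36.8% to 41.1% in replicate 3. For A it was 38.3% to 43.6% and 11.0% to 13.9% in the same libraries. The shifts of A and B were therefore larger than counting error, which is all that these intervals cover.

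**Figure D2:**
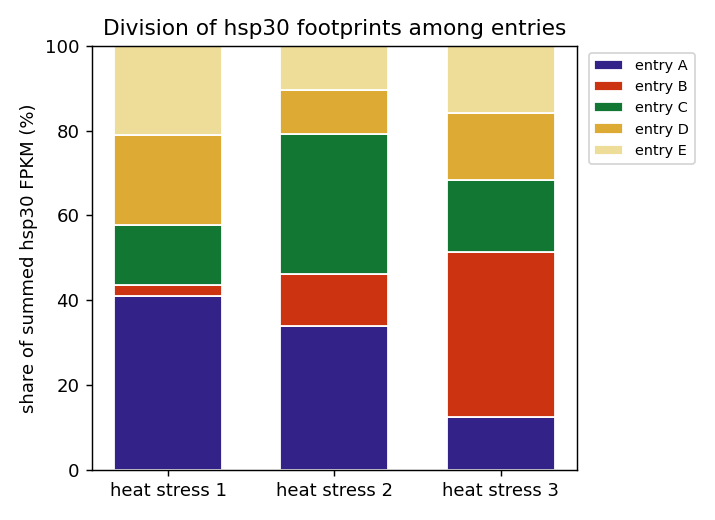
Share of each hsp30 entry in the summed hsp30 FPKM (vertical axis, percent) in heat stress libraries 1 to 3, one stacked bar per library. Entry A (dark blue) shrinks from 41.0% to 12.4% where entry B (red) is 38.9%. The identical entries D and E are both counted.

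Entry B had the largest relative spread among the listed genes compared, but a single library brought it into that comparison. Over the 472 listed genes with a mean of at least 100 depth-scaled footprints, the coefficient of variation of FPKM between the 3 heat stress libraries had a median of 18.6% and quartiles of 11.5% and 27.8%. It was 113% for entry B, with 0 genes above it. The mean footprints were taken over all 6 libraries. Entry B reached 100 only through its 751 footprints in heat stress replicate 3, which also set its spread. The next value was 76.7%, for IFI44L, an interferon-induced gene. Entries A and C had 42.9% and 44.7%, with 32 and 30 genes above them, and D and E had 31.7%. These entries had at most 18 footprints in a control library, so they too entered the comparison only through the heat stress libraries. Their places in it are a description. The summed hsp30 had 13.3%, but a sum of several entries tends to vary less than single genes. Among the 131 symbols with several entries described next, the sum had a median coefficient of variation of 16.9%, and hsp30, with its identical pair counted once, had 15.6%, with 58 symbols below it.

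**Figure D3:**
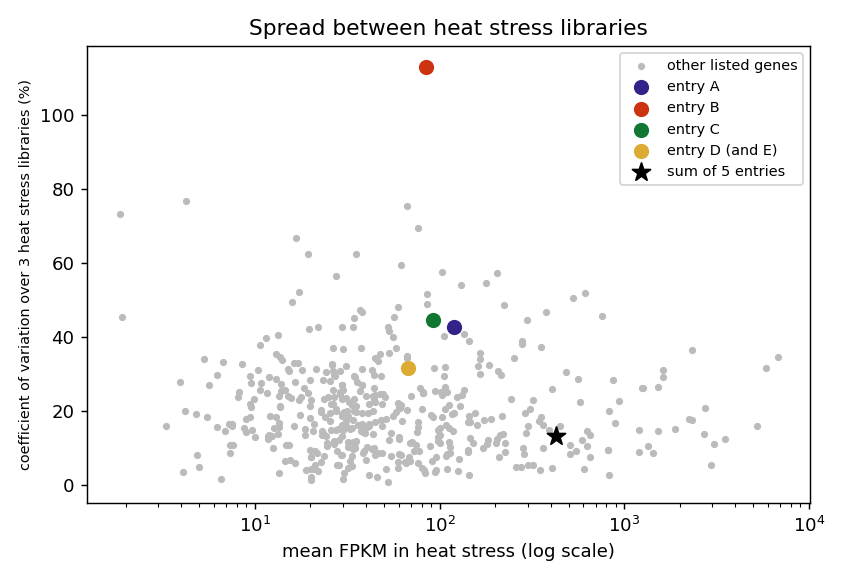
Coefficient of variation of FPKM over the 3 heat stress libraries (vertical axis, percent) against mean FPKM in heat stress (horizontal axis, log scale) for 472 listed genes. Entry B lies alone at 113%, A and C near 43% and 45%, and the sum of the entries at 13.3%.

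A shift of shares was also measured for every other symbol with several entries. There were 131 symbols with at least 2 distinct entries and at least 30 summed footprints in each heat stress library. Symbols were cut to 8 characters, so a few of them, such as si:ch211, may join differently named genes. For each symbol, the entry whose share of the summed FPKM varied the most was taken, with identical entries counted once. The range of that share had a median of 8.65 percentage points over these symbols. It was 42.9 points for hsp30, the largest of the 131, followed by 36.5 points each for tmem269 and igf1, the insulin-like growth factor gene. The other 130 symbols all had fewer distinct entries than the 4 of hsp30, and more entries give more chances of a wide range. The measure was therefore also taken for each pair of distinct entries of 1 symbol, as the share of one in the sum of both. Over 161 such pairs the range of that share had a median of 7.90 points and a 90th percentile of 23.6 points. The 6 pairs of hsp30 entries had 32.4 to 69.8 points and ranks 1, 2, 3, 6, 10 and 11. Entry A held 93.9%, 73.2% and 24.1% of the sum of A and B in heat stress replicates 1, 2 and 3. The 6 pairs share 4 entries and are not independent, and no test was made.

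**Figure D4:**
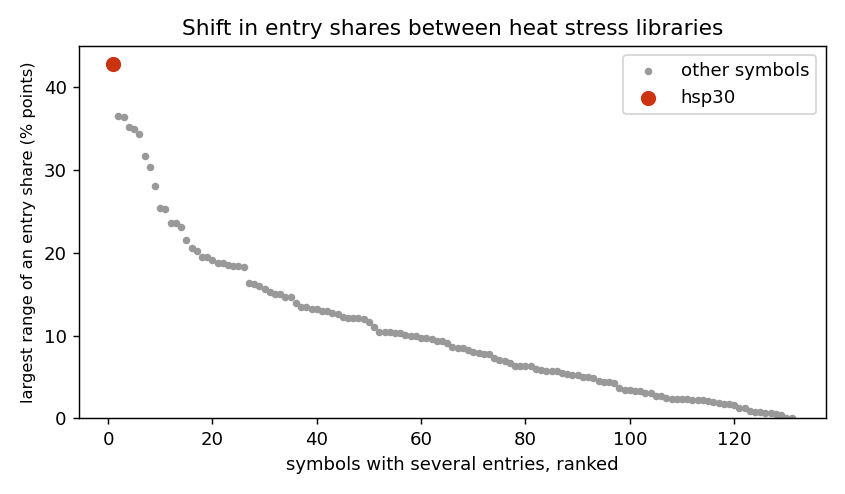
Largest range of an entry's share between the 3 heat stress libraries (vertical axis, percentage points) for 131 symbols with several entries, in falling order (horizontal axis). hsp30 is first at 42.9 points.

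Entries D and E could not be told apart. Their counts and FPKM were identical in all 6 libraries, as were those of 16 entries in 8 pairs over the whole table. Whether the same footprints were counted for both or divided evenly between them cannot be told from the table. With the pair counted once, the summed hsp30 was 303, 368 and 416 FPKM in heat stress replicates 1, 2 and 3, with a mean of 362 ± 56.5 (SD, n = 3), and the log2 fold change was 7.56. Entries A and B were least alike in heat stress. With each entry's FPKM in the 3 heat stress libraries written as percentages of their sum, A and B had 41.2% in common. A had 75.8% in common with C and 78.5% with D, and B had 54.9% with C and 62.7% with D.

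At low levels the ratio of count to FPKM differed more between the entries. In control replicate 1, entries C, D and E were each given 14 footprints, but entry C had 3.04 FPKM and D and E had 2.85, a gap of 6.67%. In each heat stress library, with more footprints, the ratio differed between the entries by at most 0.498%. Counts are given in whole numbers, and whether rounding gave the gap in control was not tested. The labels do not say how footprints that match several copies were assigned, and the part of that step in the shift between A and B was not tested.

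The other genes of the heat shock response gave a frame for the level of hsp30. Of 6 starts of symbols for small heat shock and crystallin genes looked for, 1 was listed, as the single entry hspb11. It was taken by the start of its symbol alone, which does not show it to be a small heat shock gene, so it is no comparison for hsp30. It had no footprint in control and 2.40, 3.60 and 2.06 FPKM in heat stress replicates 1, 2 and 3, too few footprints to test. Of 21 symbols for chaperones, their partners and regulators, 16 were listed with 24 entries, of which 22 rose and 2 fell by limma-voom. With TMM over the listed genes 13 rose and 2 fell, where 7.81% of all tested genes rose in place of 71.3%, and the sign of hsp90ab1 and hspa8 turned. By recovered depth the 24 entries had a median log2 fold change of 3.81, against 1.66 over all tested genes. Heat shock factor genes hsf1, hsf2 and hsf4 were not among the listed genes.

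The gene hspa1b and the more abundant of 2 hsp70 entries stood above the summed hsp30 in level per length. The inducible Hsp70 gene hspa1b had 1326, 901 and 1557 FPKM in heat stress replicates 1, 2 and 3, and the more abundant hsp70 entry 848, 808 and 811 FPKM. Each value was above the 384, 411 and 494 FPKM of the summed hsp30. The other hsp70 entry had 6.73, 3.53 and 5.56 FPKM, below every hsp30 entry in each of these libraries. The co-chaperone gene bag3, whose product links small heat shock proteins to Hsp70, was lower, at 21.7, 27.3 and 24.9 FPKM. It rose from 0.553 ± 0.347 to 24.6 ± 2.80 FPKM (SD, n = 3; limma-voom adjusted p = 7.81e-05). The constitutive Hsc70 gene hspa8 went from 47.6 ± 16.5 to 125 ± 5.01 FPKM (limma-voom adjusted p = 0.0129), with its sign turned under TMM. The median coefficient of variation between heat stress libraries was 15.8% over these 24 entries.

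The profile of the summed hsp30 over the 6 libraries was most like those of dnajb1b, P4HA1, hsp90a.1, FKBP4 and Hspa4. Each gene's 6 FPKM values were written as percentages of their sum, and the percentage in common with hsp30 was taken for 789 listed genes with at least 30 footprints in each heat stress library. The median was 76.2%. The most alike was dnajb1b, an Hsp40 co-chaperone gene, with 97.7% in common. It had 2.74, 3.76 and 1.99 FPKM in control and 195, 186 and 234 FPKM in heat stress. P4HA1, a collagen prolyl hydroxylase gene, followed with 96.7%, and an entry of the Hsp90-alpha gene hsp90a.1 with 96.6%. An entry of FKBP4, an Hsp90 co-chaperone gene, had 96.5%, and an entry of Hspa4, a gene of the Hsp110 type, 96.3%. The symbols hsp90a.1, FKBP4 and Hspa4 had several entries, and these values are for 1 entry of each. Heat stress replicate 3 was the highest library in the summed hsp30 and in each of these 5 genes. They were chosen for likeness over these same libraries, so the shared highest library is no separate result. All these values share the same libraries and depths and are a description.

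**Figure D5:**
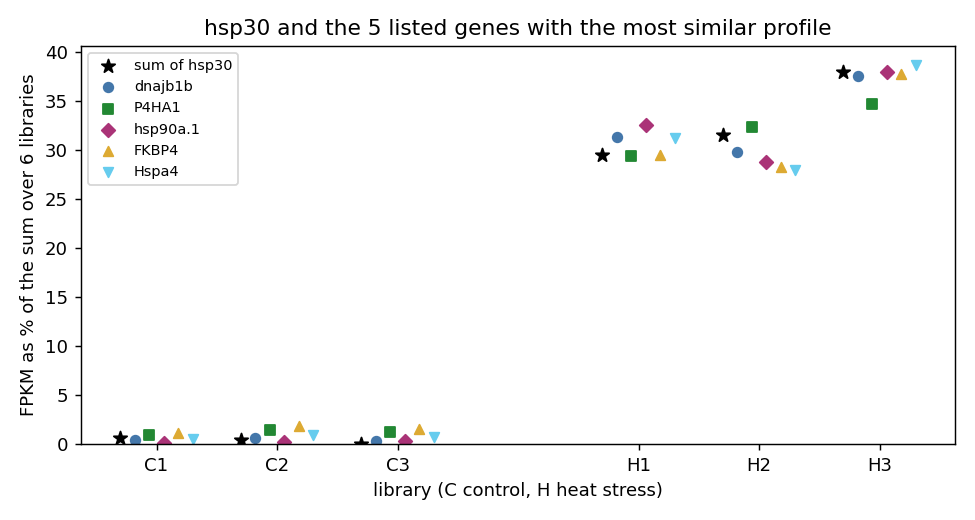
FPKM of the summed hsp30 and of the 5 listed genes with the most similar profile, each as percent of its own sum over the 6 libraries (vertical axis), by library (C1 to C3 control, H1 to H3 heat stress). All 6 lie near 0 in control and between 28% and 39% in each heat stress library.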

How the data were processed

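The authors deposited a single table that gives, for each gene, footprint counts as whole numbers and FPKM in each library, followed by group means, a log2 fold change and its p-value and FDR. Per the submitters' processing notes, Bowtie2 and edgeR were used, without a stated role or version. Sources used here give no build, annotation or read counter. Cells of the table are 8 characters wide and longer text was cut. Unlisted genes were not analysed here.

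Library depth was the median ratio of count to FPKM over 94 genes that had 200 footprints and 10 FPKM or more in every library, relative to control replicate 1 (SD at most 1.02%). Counts were tested with limma-voom (limma 3.58.1, R 4.3.3) on these depths, over the 1152 genes that reached 10 depth-scaled footprints in 3 libraries, with a total of 15 or more. Benjamini-Hochberg adjustment was over about 29300 genes, the number tested by the authors as estimated from FDR, rank and p-value. The fit was also run on simulated counts with the same spread setting for all genes. That run does not bear on the hsp30 calls. The rest used scipy 1.17.1, numpy 2.4.6, pandas 2.3.3 and matplotlib 3.10.9 in Python 3.11.15. The entries and lists were chosen with earlier results of these data known. All hsp30 entries were named, other genes by fixed symbol lists or by likeness of profile to the summed hsp30, 5 at most. The genes IFI44L, tmem269 and igf1 were chosen after their values were seen. Replicate pairs all differed beyond sampling noise, with a chi-square of 14.7 to 33.2 per degree of freedom. Alternatives were other scalings, FPKM in place of counts, no filter, the replicate number as a block and each library left out. Some listed genes are not reported here by name.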

Additional observations from a re-analysis of the deposited data

How the results depend on the processing

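All hsp30 log2 fold changes kept their direction in every alternative that was run, and the entries A, D and E and the sum kept their calls. The number of entries called was 3 with TMM or with median of ratios over the listed genes and 4 to 5 with a library left out. Calls over all tested genes, in either direction, were 30.9% and 30.7% with these scalings, in place of 87.5%. They were 49.0% to 84.4% with a library left out. Calls as higher were 7.81% and 7.64% with these scalings and 38.7% to 72.3% with a library left out, in place of 71.3%. The log2 fold change of B, with its call lost, was 7.01 with TMM, 6.95 with median of ratios and 7.57 with summed listed footprints. That of C, with its call lost, was 4.36 and 4.31 with TMM and median of ratios. With each library left out, B ranged from 7.32 to 9.58. The cause was not tested. Counting the identical pair once, an alternative chosen after seeing the data, moved the summed level from 430 to 362 FPKM. Counts are not per length, and by counts in place of FPKM entry A moved from place 116 to 177 and B from 157 to 215. Entry C moved from 150 to 237, and D and E each from 182.5 to 280.5. With the replicate number as a block, all 5 entries passed and the sum's log2 fold change was 6.91, and calls over all tested genes went from 1008 to 1102. Deviations from the group mean had correlations of -0.053, -0.0366 and 0.0109 between same-numbered libraries. Between differently numbered ones they were -0.0446 to 0.0769. The labels state no pairing, and such values cannot tell whether same-numbered libraries share a source. An edgeR test of the counts was not run, although the counts could be read for limma-voom. With 2 groups of 3, no outlying library could be tested for.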

Other observations

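The levels of entries A and B added up to 168, 190 and 253 FPKM in heat stress replicates 1, 2 and 3. Their sum differed by at most 1.51-fold between libraries, with a coefficient of variation of 21.8%. This pair was chosen after its values were seen.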
